A study of Mus musculus with 4 samples.

Results

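This set of 7 carbonic anhydrase genes, Car1, Car2, Car3, Car4, Car8, Car12 and Car13, was examined across mouse progenitors of red cells and megakaryocytes. Its members were found by matching the gene name that the arrays give each probe. This took in 10 probes of 39418 and 7 genes of 31703, with 2 probes each for Car1, Car4 and Car8. The set was put together because Car1 and Car2 were much brighter in bone marrow than in fetal liver, so the difference between the sources is given for these genes as a description without a test.

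RNA came from 4 samples, each hybridised to 1 one-colour array: Ezh2-null adult bone marrow, wild-type adult bone marrow, Ezh2-null fetal liver of stage E14.5 and wild-type fetal liver of the same stage. All 4 were on a C57BL/6 background and are labelled as erythrocyte/megakaryocyte progenitors (MEP). Ezh2 encodes a histone methyltransferase of Polycomb repressive complex 2, and the study set the null genotype against wild type in each source. The labels give neither the allele, the means of deletion, the sorting of the cells nor the number of animals, and with 1 array per group the replicate error of a pairwise difference is unknown.

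Carbonic anhydrases catalyse the reversible conversion of carbon dioxide and water to bicarbonate and a proton. In red cells the cytosolic enzymes encoded by Car1 and Car2 let carbon dioxide be carried in the blood as bicarbonate, which leaves the cell through the anion exchanger band 3. In human red cells the CA1 protein is scarce before birth and abundant in the adult, and the gene serves as a marker of adult erythroid cells. The other genes of the set encode a muscle enzyme (Car3), an enzyme anchored on the outer face of the membrane (Car4), a relative without catalytic activity (Car8), a transmembrane enzyme (Car12) and a further cytosolic enzyme (Car13).

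The array measured each gene with probes of 60 bases. The probes of Car1 are shown because Car1 had the widest difference of the set between the sources and was read by a pair of separate sequences. The silent probe of Car4 is shown because it did not match the brighter probe of that gene in detection. Positions in the transcript are counted from the start of the design's transcript, and chromosome positions follow the design's build, mm9.
Car1 probe from base 541: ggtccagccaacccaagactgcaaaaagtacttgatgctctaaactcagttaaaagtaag
Car1 probe from base 615: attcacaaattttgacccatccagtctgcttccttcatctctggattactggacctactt
Car4 probe from base 470: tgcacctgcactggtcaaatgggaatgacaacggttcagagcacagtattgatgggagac

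The Car1 probes lie on the minus strand at chr3:14770171-14770230 (base 541) and chr3:14767486-14767545 (base 615). They follow each other closely in the transcript and lie apart in the genome, and each can be read through in at least 1 frame without a stop codon. Their GC content was 41.7% for both. The remaining probes, which are named by their place in the transcript, were those of Car2 (base 1225, chr3:14900206-14900265), Car3 (base 936, chr3:14871781-14871840), Car4 (base 1230, chr11:84779487-84779546; base 470, chr11:84777667-84777726), Car8 (base 3757, chr4:8070545-8070604; base 5645, chr4:8068657-8068716), Car12 (base 3605, chr9:66614542-66614601) and Car13 (base 1628, chr3:14662332-14662391). An exon annotation of build mm9 was not used here.

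A single slide held all 4 arrays, which were scanned together, with no saturated spot and 39.0% to 46.4% of probes well above background, which is Feature Extraction's own flag for a signal clear of the local background. The single probe of Ezh2 (base 2558 of its transcript, chr6:47480307-47480366) read 70.0 in null and 35.4 in wild-type bone marrow, against 194 in null and 33.5 in wild-type fetal liver. It was thus brighter on both arrays labelled null. The labels do not say which part of the gene is missing, a probe outside that part checks nothing, and genotypes are given here as labelled. Levels are processed spot intensities scaled so that the 75th percentile over probes well above background on all 4 arrays is equal.

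Car1 was detected in every sample and was far brighter in bone marrow. Its probe from base 615 read 4508 in null bone marrow, 6374 in wild-type bone marrow, 106 in null fetal liver and 66.3 in wild-type fetal liver. Feature Extraction's error for these spots was 451, 637, 11 and 7.82 in the same order, an error of the spot and not of repeated samples. Both bone marrow samples stood above both fetal liver samples, and within each source the spot errors of the genotypes did not meet. The level was 42.3-fold higher in bone marrow than in fetal liver among null progenitors (5.40 on the log2 scale) and 96.1-fold higher among wild-type progenitors (6.59). These differences were the 5th of 16688 and the 1st of 15382 genes compared, counted from the highest.

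The Car1 probe from base 541 pointed the same way. It read 456 in null and 685 in wild-type bone marrow, against 19.0 in null fetal liver, while its 5.33 in wild-type fetal liver was not well above background. A gene not well above background in 1 sample of a pair is given as a bound, with the dim side set at the array's floor, the lowest signal among detected probes, or at its own signal if higher. The bone marrow level was then 24.1-fold higher among null progenitors and at least 35.5-fold higher among wild-type progenitors. In these bulk samples, fewer cells with the RNA and less RNA per cell cannot be told apart.

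Car2, the fast cytosolic enzyme, was detected in every sample and was also brighter in bone marrow. Its probe read 2468 in null bone marrow (spot error 247), 3240 in wild-type bone marrow (324), 436 in null fetal liver (43.7) and 467 in wild-type fetal liver (46.9). The sources did not overlap, the spot errors of the fetal liver samples did, and those of the bone marrow samples did not. The level was 5.66-fold higher in bone marrow among null progenitors (log2 2.50, 229th of 16688 genes) and 6.94-fold higher among wild-type progenitors (log2 2.79, 168th of 15382). The difference for Car2 was thus smaller than that for Car1 in each genotype.

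**Figure D1:**
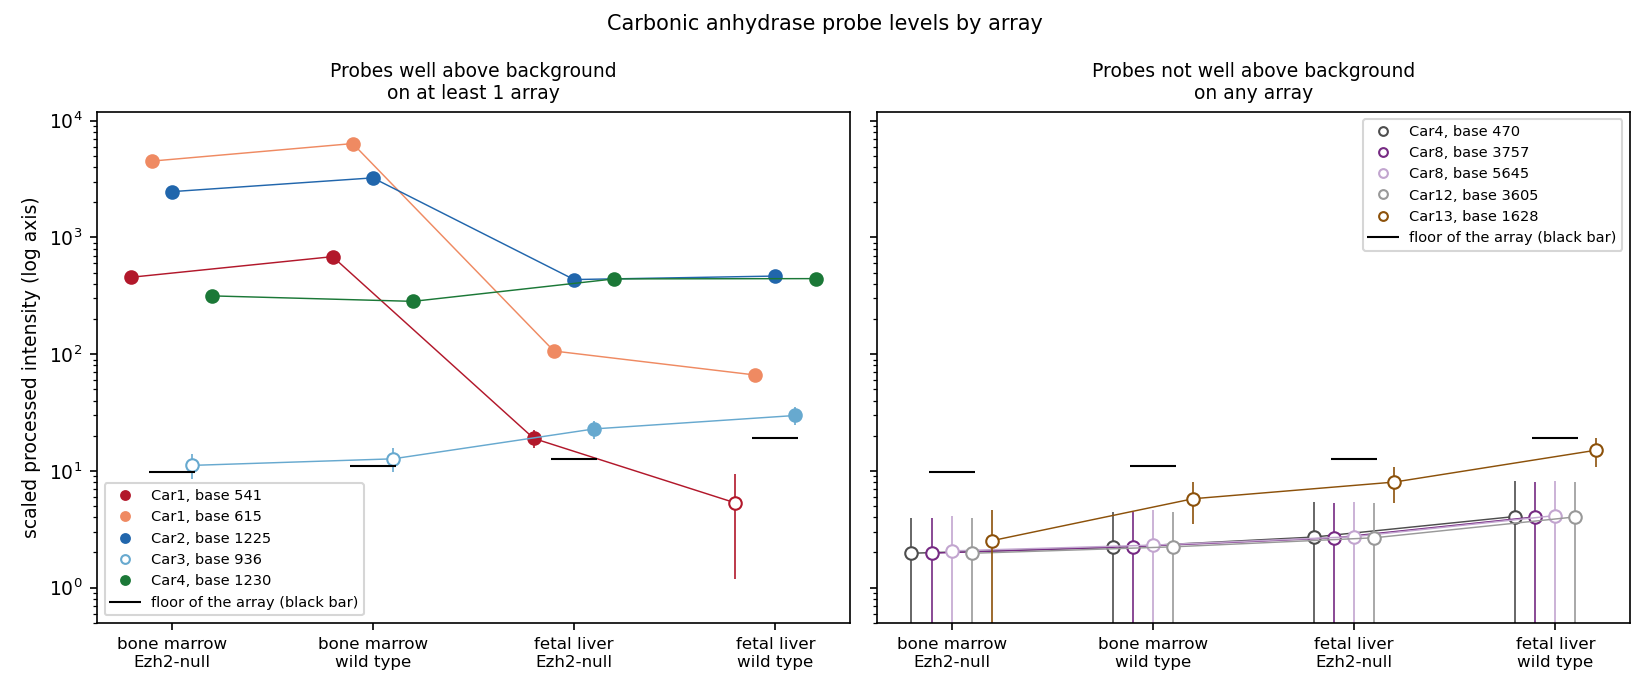
Scaled processed intensity (log axis) of the 10 probes on each of the 4 arrays, with probes detected on at least 1 array on the left and the others on the right. Filled points are well above background and open points are not, error bars are Feature Extraction's spot error (lower ends run off the axis for dim probes), black bars are the floor of each array, and lines only join the points of a probe, whose level is not to be set against another probe's. Both Car1 probes and Car2 are higher in bone marrow than in fetal liver, Car4 differs by under 2-fold, and Car3 is well above background in fetal liver only.

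Car3, the muscle enzyme, was near the limit of detection. It read 22.9 in null fetal liver (spot error 4.0) and 29.8 in wild-type fetal liver (5.33), while 11.1 in null bone marrow and 12.7 in wild-type bone marrow were not well above background. It was at least 2.05-fold lower in bone marrow among null and at least 2.35-fold lower among wild-type progenitors, but under 2-fold with several other settings: −0.88 to 0.00 on the log2 scale over 6 of 11 settings in wild type and −0.80 to −0.09 over 7 of 11 in null.

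Car4, the membrane-anchored enzyme, was detected in every sample with its probe from base 1230. It read 316 in null bone marrow, 284 in wild-type bone marrow, 442 in null fetal liver and 444 in wild-type fetal liver, with spot errors of 31.7, 28.5, 44.3 and 44.6. The genotypes overlapped within their spot errors in both sources. Its difference between the sources was −0.48 among null and −0.65 among wild-type progenitors on the log2 scale, under 2-fold, and of positive sign with spike-in scaling (0.32 and 0.69). The probe from base 470, printed above, read 1.97 to 4.07 and was never well above background, so the probes of Car4 disagree on whether the RNA is detected.

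Car8, Car12 and Car13 were not well above background in any sample. With the silent probe of Car4 these made up 5 probes, whose signals lay between 1.97 and 15.0. Car13 read 2.53 in null bone marrow, 5.78 in wild-type bone marrow, 8.02 in null fetal liver and 15.0 in wild-type fetal liver, each under the floor of its array. In all, 4 of the 7 genes (57.1%) were detected in at least 1 sample, against 55.7% of all 31703 genes, and 3 of 7 in all 4 samples, against 35.3% of all genes.

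Counted at 2-fold, Car1 and Car2 were higher in bone marrow and Car3 lower, of the 4 detected genes, in each genotype. Over all genes compared, 10.5% were at least 2-fold higher and 27.1% lower in null bone marrow, and 13.1% higher and 31.9% lower in wild-type bone marrow. Since the set was chosen on this difference, nothing is read from its count. The direction of the bulk of genes depended on scaling. Of the genes called, 27.9% were higher in bone marrow among null and 29.1% among wild-type progenitors, against 71.7% and 94.8% with scaling to the spike-in probes, 64.2% and 54.9% with the percentile over all probes, and 52.2% and 51.7% with quantile normalization. With the median over detected probes the share in null was 42.3%.

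The median difference of all genes was −0.52 among null and −0.58 among wild-type progenitors. Relative to it, Car1 was higher in bone marrow by 5.92 log2 in null and 7.17 in wild type. Over 11 other settings these values ran from 5.08 to 5.94 and from 5.91 to 7.42. Car2 stood 3.02 above the median in null and 3.37 in wild type, with 2.40 to 3.03 and 2.76 to 3.63 over the other settings. Car4 lay at the median, at 0.03 in null and −0.07 in wild type, and its sign changed among the settings (−0.43 to 0.05 and −0.45 to 0.18).

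**Figure D2:**
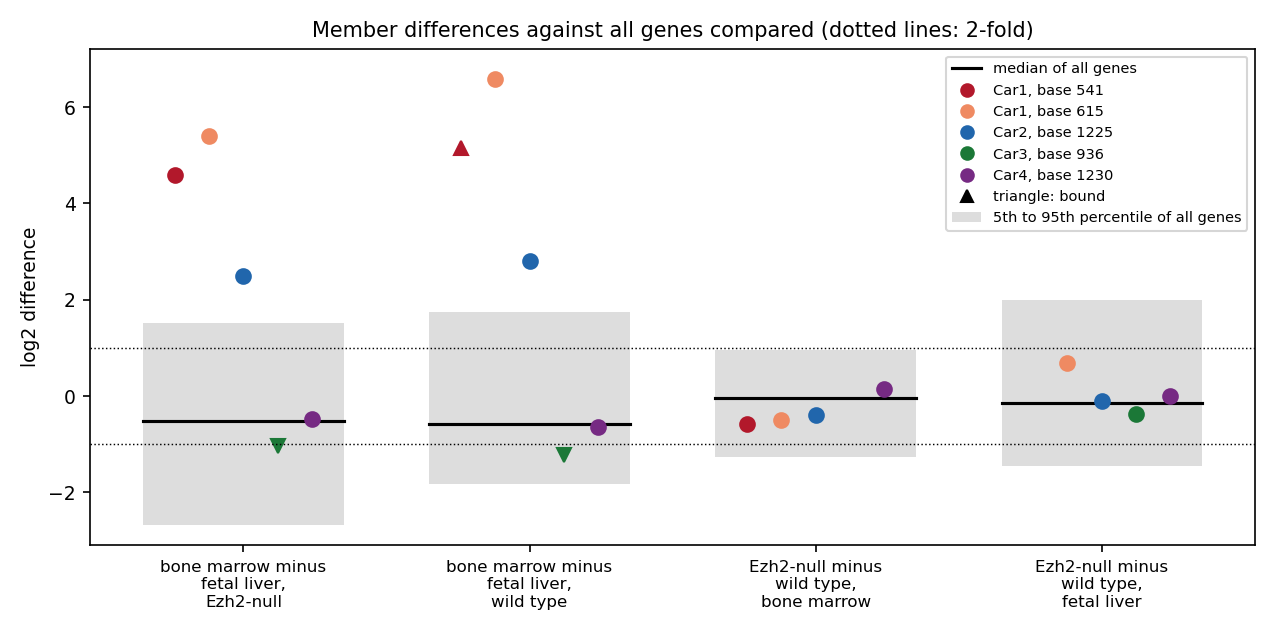
Log2 difference of each detected probe in the 4 comparisons (points, triangles for bounds), over the 5th to 95th percentile of all genes compared (grey) and their median (black line). Between the sources both Car1 probes and Car2 lie above the grey range in each genotype, and between the genotypes every point lies inside it and within 2-fold.

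The genotype comparison was not used to choose the genes. In bone marrow 0 of the 3 genes detected on either array differed by 2-fold between null and wild type, where 4.54% of all genes were at least 2-fold higher and 7.74% lower. Car1 was 1.41-fold lower in null bone marrow by its probe from base 615 (log2 −0.50) and 1.5-fold lower by that from base 541 (−0.59), Car2 was 1.31-fold lower (−0.39), and Car4 was 1.11-fold higher (0.16). The signs for Car1 and Car2 were kept under all 11 other settings, and the sign for Car4 was not (−0.01 at the lowest).

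In fetal liver 0 of the 4 detected genes differed by 2-fold, where 15.4% of all genes were higher and 13.5% lower in null. Of the genes called there, 53.3% were higher, against 83.6% with spike-in scaling and 41.4% with the percentile over all probes. Car1 was 1.61-fold higher in null fetal liver (log2 0.68, range over the settings 0.26 to 1.26). It passed 2-fold under 3 settings, with spike-in scaling, with both probes averaged and with the trend along the transcript removed. The averaged value (1.26) takes in the base 541 probe's 5.33 in wild-type fetal liver, which was not well above background. Car2 was 1.07-fold lower (−0.10), Car3 was 1.30-fold lower (−0.38) and Car4 was at −0.01 log2. The sign changed among the settings for Car2 (−0.26 to 0.39), Car3 (−0.55 to 0.11) and Car4 (−0.30 to 0.48). No fold is given for the Car1 probe from base 541, since its level in null was under the floor of the wild-type array.

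The genotype effect over both sources was tested with limma, in a fit of all 4 arrays that added a source effect to a genotype effect (2 arrays per genotype) and left 1 residual degree of freedom. Each gene's variance was drawn by limma toward a value shared by all genes, which counted as 4.05 prior degrees of freedom. No carbonic anhydrase of the set passed. With limma, the estimate on the log2 scale was 0.09 for Car1 (SE 0.48, adjusted p = 0.996), −0.25 for Car2 (SE 0.41, adjusted p = 0.995), −0.19 for Car3 (SE 0.41, adjusted p = 0.995) and 0.07 for Car4 (SE 0.40, adjusted p = 0.996). For Car3 both bone marrow signals lay under the highest floor (19.3) and were raised to it before the fit. Its estimate therefore rests on the fetal liver difference alone. In the same limma fit 0 of 16250 genes passed an adjusted p of 0.05 (0% called), and 278 had an unadjusted p under 0.05.

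The genotype difference in bone marrow minus that in fetal liver was −1.18 log2 for Car1, −0.29 for Car2 and 0.16 for Car4. Over the 11177 genes detected in all samples its median was 0.26, with 5% below −2.22 and 5% above 1.70. The 3 genes thus lay within the range of most genes, and these differences were not tested.

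Car13, Car1, Car3 and Car2 are neighbours on chromosome 3 in that order, within 238 kb from the first probe base to the last on build mm9, while Car4, Car8 and Car12 lie on other chromosomes. Of the 4 clustered genes, Car1 and Car2 were detected in every sample and Car3 and Car13 were at or under the limit of detection. Next to Car13 lies Rbis, a ribosome biogenesis factor, which was the only one of 5 protein-coding neighbours on the array to be detected. Rbis read 1112 in null bone marrow, 1270 in wild-type bone marrow, 492 in null fetal liver and 362 in wild-type fetal liver. It was 2.26-fold higher in bone marrow among null and 3.51-fold higher among wild-type progenitors, in the same direction as Car1 and Car2 and past 2-fold under all 11 other settings in each genotype. Lrrcc1 and E2f5 on the Car13 side and Gm9733 and Sirpb1a on the Car2 side were not well above background in any sample. The differences were therefore not of 1 size along the cluster.

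The genes whose profile over the 4 samples was most like that of Car1 and of Car2 were taken from 11176 genes detected in all of them, by the Euclidean distance between log2 profiles centred on their means. Since each profile holds 4 points, likeness means mainly a like difference between the sources. Closest to Car1 were Sdsl (distance 1.08), B2m, the light chain of MHC class I molecules (1.75), Stard10 (2.0), Lgals3bp (2.12) and Ces2g (2.23). Sdsl read 1037 in null and 1099 in wild-type bone marrow, against 25.2 in null and 31.6 in wild-type fetal liver, which is 41.2-fold and 34.8-fold higher in bone marrow.

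Closest to Car2 were Hsdl1 (distance 0.14), Parvg (0.17), Leprot (0.20), Spn, the sialoglycoprotein CD43 of blood cells (0.21), and Tex30 (0.26). Spn read 5508 in null and 6858 in wild-type bone marrow, against 801 in null and 967 in wild-type fetal liver, which is 6.88-fold and 7.09-fold higher in bone marrow. The closest gene to Car1 was farther from it than all 5 genes were from Car2.

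No other carbonic anhydrase gene was 2-fold apart between the sources as reported. Of 9 further genes of the family on the array, Car7, Car9, Car11, Car14 and Car15 were detected in at least 1 sample, and Car5a, Car5b, Car6 and Car10 in none. Between the sources 0 of 5 compared in null and 0 of 4 in wild type were 2-fold apart. Among all genes 10.5% were higher in bone marrow and 27.1% lower in null, and 13.1% and 31.9% in wild type. The median of these genes was −0.17 in null and −0.55 in wild type, beside −0.52 and −0.58 for all genes. Car7, a cytosolic enzyme, read 120 in null and 112 in wild-type bone marrow, against 135 in null and 164 in wild-type fetal liver. Car9, a membrane enzyme known as a hypoxia target, read 28.9 in null and 30.5 in wild-type bone marrow, against 19.9 in null and 44.8 in wild-type fetal liver. Car9 was the only one of these 9 further genes past 2-fold between the genotypes, lower in null fetal liver (log2 −1.17), and 0 of them were with spike-in scaling. Between the sources Car9 passed 2-fold in null under 3 of 11 other settings, higher in bone marrow (log2 0.54 as reported, 1.34 with spike-in scaling). With spike-in scaling the median of the compared genes was 0.63 in null and 0.78 in wild type.

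Genes that move bicarbonate, protons, water or gases across the membrane went in several directions. Of 15 genes on the list 11 were detected. Of 10 compared in null 2 were higher and 4 lower in bone marrow. Of 10 in wild type 1 was higher and 4 lower. Among all genes 10.5% were higher and 27.1% lower in null, and 13.1% and 31.9% in wild type. The list's median was −0.70 in null and −0.82 in wild type, beside −0.52 and −0.58 for all genes, and turned positive with spike-in scaling (0.11 and 0.51). Between null and wild type, 1 of 9 was higher and 1 lower in bone marrow, and 1 of 10 higher and 2 lower in fetal liver, where over all genes 4.54% were higher and 7.74% lower in bone marrow, and 15.4% and 13.5% in fetal liver. Slc4a8, Slc4a10, Slc26a6 and Slc16a1 were not detected.

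Aqp1, the water channel of red cells, was higher in bone marrow under every setting. It read 12055 in null and 10889 in wild-type bone marrow, against 1660 in null and 3541 in wild-type fetal liver, 7.26-fold higher among null and 3.08-fold higher among wild-type progenitors. Slc4a1, which encodes the band 3 anion exchanger, went the other way. It read 112 in null and 39.1 in wild-type bone marrow, against 248 in null and 458 in wild-type fetal liver, with log2 differences of −1.15 and −3.55. The direction of Slc4a1 held under all settings, while its 2-fold call in null was lost in 6 of 11 (−0.35 with spike-in scaling). The bicarbonate exchange partner of the carbonic anhydrases in mature red cells was therefore lower in the source where Car1 and Car2 were higher.

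Among the other exchangers, Slc4a2 was higher in bone marrow by 0.84 log2 in null and 0.74 in wild type. Slc4a3 differed by −1.07 in null and −1.29 in wild type, Slc4a4 by a bound of −1.40 and −1.50, Slc4a5 by −0.77 and −0.66, and Slc4a7 by −0.53 and −0.99. Of these 4, the wild-type differences of Slc4a3, Slc4a5 and Slc4a7 and the null differences of Slc4a5 and Slc4a7 took a positive sign with spike-in scaling. Rhd, of the Rh complex, was higher in null bone marrow (1.93) and near equal in wild type (−0.18, but 1.16 with spike-in scaling). Rhag, its partner, was detected in null fetal liver only, at 83.1. The proton channel gene Hvcn1 differed by −0.62 in null and −1.11 in wild type, and by 0.18 and 0.23 with spike-in scaling, and Slc26a3 was detected in wild-type bone marrow only, at 25.7.

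**Figure D3:**
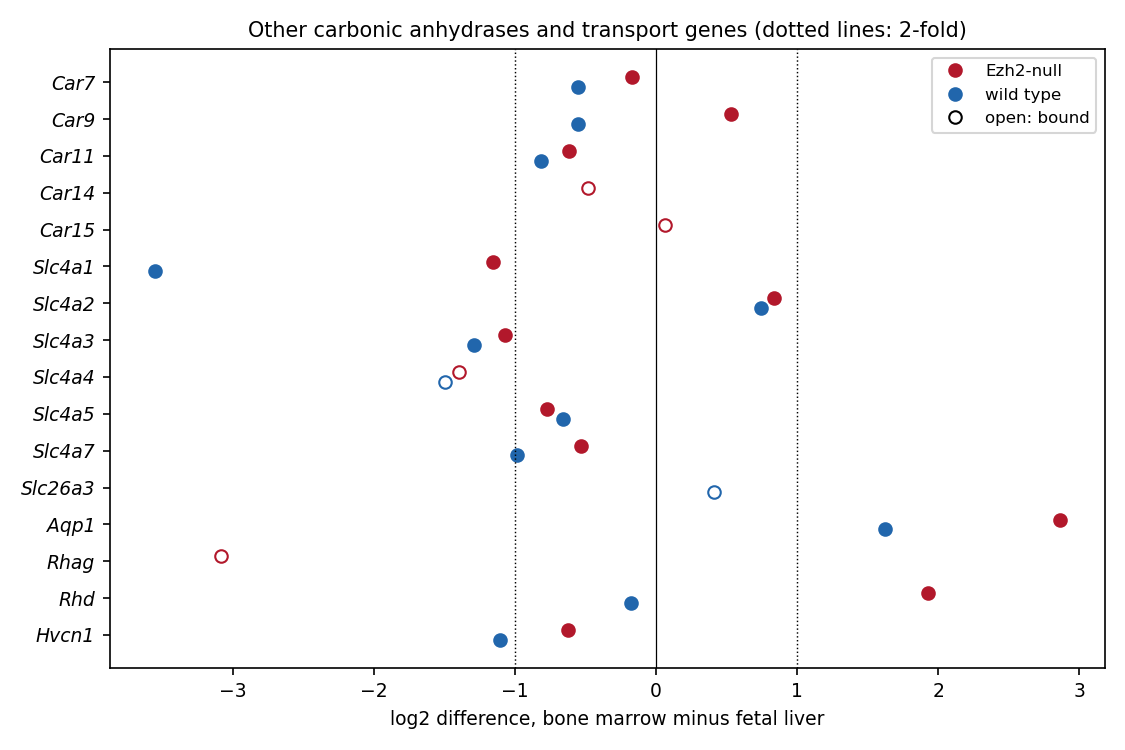
Log2 difference, bone marrow minus fetal liver, of the other detected carbonic anhydrase genes and of the detected transport genes in Ezh2-null (red) and wild-type (blue) progenitors, with open points for bounds and no point where neither sample or no bound gave a difference. None of the other carbonic anhydrase genes passes 2-fold, Aqp1 lies to the right in both genotypes and Slc4a1 to the left.

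Marker genes of cell types are given beside these values. Summed levels, here and below, take in every gene of a list on the array, detected or not. The 22 erythroid genes summed to 30347 in null and 16968 in wild-type bone marrow, against 39921 in null and 103581 in wild-type fetal liver. Most of the sum in wild-type fetal liver came from the globin genes Hba-a1 and Hbb-bt. Of the 22 genes 19 were detected. Of these 19 genes 3 were at least 2-fold higher and 3 lower in bone marrow in null, and 1 higher and 9 lower in wild type, against 10 and 3, and 7 and 5, with spike-in scaling. Over all genes the shares as reported were 10.5% and 27.1% in null, and 13.1% and 31.9% in wild type. With spike-in scaling 4648 of 16688 genes were higher and 1839 lower in null. In wild type 6164 of 15382 were then higher and 337 lower. The list's median was 0.21 log2 in null and −0.98 in wild type, beside −0.52 and −0.58 for all genes (1.02 and 0.36 with spike-in scaling, beside 0.27 and 0.72). Among the brightest, Gata1, a factor of the erythroid and megakaryocyte lineages, read 7671 in null and 7014 in wild-type bone marrow, against 6624 in null and 10281 in wild-type fetal liver. The β-globin gene Hbb-bt read 3885 in null and 196 in wild-type bone marrow, against 17503 in null and 39877 in wild-type fetal liver. The α-globin gene Hba-a1 read 3855 and 433 in bone marrow, and 6575 and 32860 in fetal liver. Globin genes were therefore lowest in wild-type bone marrow, where Car1 and Car2 were highest. Globin probes may share signal with near-identical copies of the genes.

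The megakaryocyte list (12 of 15 genes detected) summed to 896 in null and 395 in wild-type bone marrow, against 1166 in null and 649 in wild-type fetal liver. Its genes went both ways. In null 2 of 11 compared were at least 2-fold higher in bone marrow and 5 lower. In wild type 1 of 8 was higher and 3 lower. Shares over all genes were 10.5% and 27.1% in null, and 13.1% and 31.9% in wild type. The list's median was −0.79 and −0.26, beside −0.52 and −0.58 for all genes. The hepatocyte list (6 of 10 detected) summed to 110 and 91.4 in bone marrow, and 186 and 719 in fetal liver. Of 5 compared in each genotype, 3 in null and 5 in wild type were at least 2-fold lower in bone marrow and 0 higher. The list's median was −1.10 in null and −2.54 in wild type. With spike-in scaling none of the 3 null calls held (Apoa1 −0.36, Apoa2 −0.30 and Serpina1a −0.32 log2). Trf was then higher in null bone marrow (1.59). In wild type Serpina1a (−0.25) and Trf (−0.47) fell under 2-fold with that scaling, while Apoa1, Apoa2 and Rbp4 stayed lower. Apoa2 read 37.1 and 35.3 in bone marrow, and 79.5 and 419 in fetal liver (log2 −0.30 and −2.24 with spike-in scaling). Alb, Afp, Ttr and Fgb were not well above background in any sample. The lymphoid list (8 of 11 on the array) summed to 4041 and 219 in bone marrow, and 210 and 379 in fetal liver. Most of the sum in null bone marrow came from Vpreb1 (2202) and Dntt (1381). In null 5 of 8 compared were at least 2-fold higher in bone marrow and 0 lower. In wild type 1 of 5 was higher and 3 lower, beside the shares over all genes given above. Pax5 read 67.9 in null bone marrow and was highest in wild-type fetal liver (118). Ebf1, Rag1 and Il7r were not detected. The granulocyte and macrophage list (5 of 14) summed to 54028 and 54720 in bone marrow, and 85768 and 105637 in fetal liver. Nearly all of that sum was the single gene Itgam, which read 53539 in null and 54132 in wild-type bone marrow, against 85201 in null and 105022 in wild-type fetal liver. Elane, Ctsg, Lyz2 and S100a8 were among the genes not detected. The mast cell, basophil and eosinophil list (4 of 9) summed to 82.3 and 86.1 in bone marrow, and 170 and 186 in fetal liver. Of 7 osteoclast genes, a cell type known for Car2, only Acp5 was detected, at 364 in null and 106.7 in wild-type bone marrow, against 1093 in null and 3744 in wild-type fetal liver (summed level of the list 385 and 127, against 1127 and 3797), and Ctsk and Calcr were not. The part of these markers in the carbonic anhydrase differences was not tested.

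**Figure D4:**
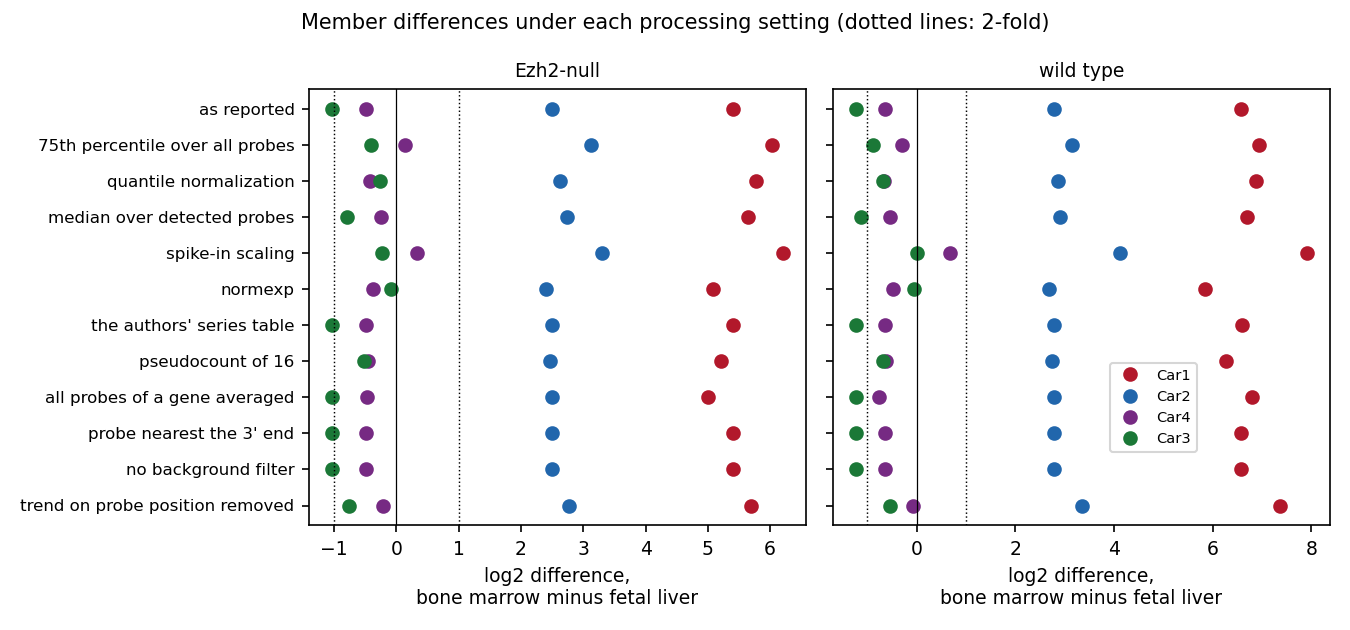
Log2 difference, bone marrow minus fetal liver, of the 4 detected carbonic anhydrase genes as reported and under 11 other processing settings, in Ezh2-null (left) and wild-type (right) progenitors. Car1 stays between 5.0 and 6.21 in null and between 5.84 and 7.92 in wild type, and Car2 between 2.40 and 3.31 and between 2.69 and 4.13. Car3 lies between −1.04 and −0.09 in null and between −1.23 and 0.00 in wild type. Car4 takes both signs, between −0.48 and 0.32 and between −0.76 and 0.69.

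Over these settings the difference of Car1 between the sources ran from 31.9-fold to 74.0-fold in null and from 57.3-fold to 242-fold in wild type. That of Car2 ran from 5.28-fold to 9.89-fold in null and from 6.44-fold to 17.5-fold in wild type. For the Car1 probe from base 541, 8 settings gave 2.75 to 5.39 log2 in null and 3.53 to 7.01 in wild type. Bone marrow was the brighter source for both genes under every one of these settings.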

How the data were processed

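RNA of 4 mouse progenitor samples was measured on one-colour Agilent arrays. Per the labels' protocols, 250 ng of total RNA with spike-in RNA was amplified and labelled with Cy3. The deposited intensity values were made with Feature Extraction 10.7.3.1 (protocol GE1_107_Sep09), per the file headers: background-subtracted and detrended within each array, with no step between arrays. The authors' series table held the same intensity values rounded (largest difference 0.496%).

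Control and outlier spots (95 to 135 per array) were left out and spots of 1 probe averaged. Log2 intensity was scaled to a common 75th percentile over 12880 probes detected on all arrays. The floors were 9.79 and 11.1 for null and wild-type bone marrow, and 12.6 and 19.3 for null and wild-type fetal liver. The brightest probe by mean log2 signal stood for a gene. Between copies of 1 probe on an array, the median log2 SD was 0.0751 to 0.143. Precision is limited by the number of arrays. A gene was called at 2-fold. limma 3.58.1 (R 4.3.3) tested the genotype term, two-sided, with Benjamini-Hochberg adjustment, with signals under the highest floor raised to it. The fit was also run on simulated data with independent noise and the same genotype change in each source. That setting differs from these data, so it does not show how the test performs on them. Gene names were updated, and gene order taken, from a RefSeq table of GRCm38.p6 (26048 probes by accession, 3193 by symbol, 929 by an older name, 9248 kept). Named were all set members, detected genes of the 2 pathway lists, the 5 nearest profiles, adjoining genes and up to 3 bright markers per list, with the undetected defining markers added after their values were seen. A gene of the transport list is not reported here and was left out of its counts. The gene set, the lists and the rules were chosen with earlier results of these data known. The labels do not say whether samples shared animals. Any p-value rests only on how far the genotype differences of the sources departed from each other in these samples. That departure was taken for the gene and over all genes, not from replicates.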

Additional observations from a re-analysis of the deposited data

Results flagged for a closer look

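For Car1, the genotype difference went opposite ways in the sources: by its probe from base 615 it was −0.50 log2 (null minus wild type) in bone marrow and 0.68 in fetal liver. This difference between the sources was not tested, since each value rests on 1 array per genotype. For Car4, by its probe from base 1230, the values were 0.16 in bone marrow and −0.01 in fetal liver, which was not tested either, and the fetal liver value is close to 0.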

How the results depend on the processing

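No paired analysis was possible because each group has 1 array. The 2-fold calls of Car1 and Car2 between the sources held under all 11 settings, one of which (removing the trend along the transcript) was chosen after seeing the data. In fetal liver 1 gene of the set, Car1, instead of 0 passed 2-fold between the genotypes with spike-in scaling, with all probes averaged and with that trend removed. In bone marrow 1 instead of 0 passed without the background filter. This was Car13, lower in null (2.53 against 5.78 in wild type) and not well above background on either array. With limma, genes passing for genotype numbered 0 as reported, 8 with the percentile over all probes and 140 without the background filter. Counts over all genes moved more: higher in bone marrow from 1022 (normexp) to 4648 (spike-in) among null, against 1749 as reported, and from 1284 to 6164 among wild-type progenitors, against 2015. Lower were 1308 (normexp) to 8716 (no filter) in null, against 4518, and 337 (spike-in) to 10041 (no filter) in wild type, against 4901. Between the genotypes in bone marrow, 125 (normexp) to 1807 (no filter) were higher, against 694, and 114 to 3165 lower, against 1182. In fetal liver 1316 (normexp) to 3947 (spike-in) were higher, against 2502, and 706 (normexp) to 4677 (no filter) lower, against 2196. The cause was not tested. Over 10 bins of probe start along the transcript, the median genotype difference was −0.01 in the first and −0.07 in the last bin in bone marrow, and −0.49 and 0.22 in fetal liver. Car3 was not well above background in bone marrow, so its differences between the sources are bounds, and Car13, not well above background anywhere, gave no difference as reported.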
